A study of Homo sapiens with 3 samples.

Results

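The IL6 family cytokines and their receptors were examined in the human clear cell renal carcinoma line RCC4, as the 10 rows of the deposited gene table named IL6, IL11, LIF, CLCF1, CTF1, IL6R, IL6ST, IL11RA, LIFR and OSMR, of 60605 genes in all. All 10 were found, 5 ligands and 5 receptor chains. The cells had been transduced with a lentiviral Cas9 vector and received IFN-gamma (1000 U/mL) and TNF (25 ng/mL) together for 24 h. The 3 poly(A) RNA libraries are biological replicates of this 1 group, each grown in 3 flasks. Untreated cells and other renal lines were not analysed here, so each value is a level in treated cells of 1 line and not a response to the cytokines.

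Cytokines of this family share gp130, the signalling chain encoded by IL6ST. IL6 and IL11 first bind a non-signalling receptor, IL6R or IL11RA, and then bring gp130 chains together. LIF, cardiotrophin 1 (CTF1) and cardiotrophin-like cytokine (CLCF1) signal through gp130 paired with LIFR, and oncostatin M through gp130 paired with OSMR or LIFR. The paired chains activate JAK kinases and STAT3, and the STAT3 target SOCS3 shuts the receptor off. IL6 made by tumour cells is known in renal carcinoma as a driver of the acute phase response.

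The libraries held 26264283 to 33458691 reads assigned to genes. Labelled cell identity was checked with fixed markers: 7 of 7 renal epithelial markers reached 1 CPM (1 read per 1000000 reads of the library, TMM scaled) in every library, against 2 of 7 leukocyte, 1 of 6 fibroblast, 0 of 4 endothelial and 0 of 3 hepatocyte markers. Of 19861 protein-coding genes, 51.4% reached this level in every library. The leukocyte-defining PTPRC and CD3E were listed at 0 reads, and the summed leukocyte list lay between 5.08 and 6.11 CPM. The 2 leukocyte markers detected were CSF1R, with 118, 102 and 159 reads in replicates 1, 2 and 3, and ITGAM, with 46, 32 and 52. COL1A1 was the fibroblast marker detected, with 221, 209 and 222 reads. Replicate 1 stood apart from the other libraries in a way that followed the GC content of transcripts. Most member results that rest on it are also given by library or without it, while levels of other genes are mostly means of 3 libraries. Replicate 1 over the other libraries, as a median log2 ratio, ran from -1.47 in the bin of lowest GC content (median 35.6%) to 0.41 in the highest (65.8%).

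The promoters of the ligands and receptors with the most reads among those in the RefSeq promoter table (GRCh38.p14) are shown here because the cells were given TNF, an activator of NF-kappa-B, and an interferon, which acts through STAT proteins. Each covers 250 bases before to 50 bases after a start site, written 5′ to 3′ on the gene's strand. Capitals mark matches on either strand to the kappa-B consensus, the STAT motif TTCNNNGAA, the AP-1 motif TGANTCA or the C/EBP motif TTGCNNAA.
IL6, chr7:22726950-22727249, plus strand: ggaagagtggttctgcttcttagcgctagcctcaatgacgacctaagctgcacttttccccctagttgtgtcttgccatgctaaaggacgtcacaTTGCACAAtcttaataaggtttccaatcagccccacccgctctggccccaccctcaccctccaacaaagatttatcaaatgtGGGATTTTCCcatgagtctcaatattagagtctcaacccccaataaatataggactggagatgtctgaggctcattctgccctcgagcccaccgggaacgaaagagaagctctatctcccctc
IL11, chr19:55370414-55370713, minus strand: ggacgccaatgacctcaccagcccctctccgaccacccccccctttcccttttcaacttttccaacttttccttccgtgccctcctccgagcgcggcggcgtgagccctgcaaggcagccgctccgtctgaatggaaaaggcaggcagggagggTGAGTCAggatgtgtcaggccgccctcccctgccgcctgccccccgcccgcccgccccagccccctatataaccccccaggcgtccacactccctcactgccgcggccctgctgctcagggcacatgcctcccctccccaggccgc
OSMR, chr5:38845762-38846061, plus strand: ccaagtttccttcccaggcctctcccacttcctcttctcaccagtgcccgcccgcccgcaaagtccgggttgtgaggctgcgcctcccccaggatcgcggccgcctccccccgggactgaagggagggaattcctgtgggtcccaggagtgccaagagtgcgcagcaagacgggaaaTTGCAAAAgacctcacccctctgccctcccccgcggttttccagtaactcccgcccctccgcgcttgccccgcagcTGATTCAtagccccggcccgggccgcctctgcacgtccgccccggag
IL6ST, chr5:55994914-55995213, minus strand: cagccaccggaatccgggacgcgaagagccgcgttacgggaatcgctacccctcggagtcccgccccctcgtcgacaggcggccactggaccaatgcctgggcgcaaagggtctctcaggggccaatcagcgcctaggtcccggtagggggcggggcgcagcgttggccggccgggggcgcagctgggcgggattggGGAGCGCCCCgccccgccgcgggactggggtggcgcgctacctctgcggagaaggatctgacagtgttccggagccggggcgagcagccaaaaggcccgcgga

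The IL6 promoter held the kappa-B match GGGATTTTCC, whose first base lay 73 bases before the start site, and the C/EBP match TTGCACAA, 155 bases before it. The IL11 promoter held 1 AP-1 match, TGAGTCA, 96 bases before its start site. The OSMR window held the C/EBP match TTGCAAAA and the AP-1 match TGATTCA, and the IL6ST window 1 kappa-B match on the opposite strand, GGAGCGCCCC. No 2 matches overlapped in these 4 windows. Of 35116 promoter windows of the same length, 11.3% held a kappa-B match, 7.66% a STAT match, 7.71% an AP-1 match and 10.5% a C/EBP match, so each motif is common and a match describes letters only. The table matched 7 of the 10 members, with 10 windows. Both STAT matches among these 10 windows belonged to LIFR, in its windows starting at 38557418 and 38595356 on chromosome 5.

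Of the 10 members, 8 were detected, meaning at least 1 CPM in each library, beside 51.4% of 19861 protein-coding genes. The members not detected were IL11RA and CLCF1. Levels are in RPKM (CPM divided by exon length in kilobases), so that genes can be compared per length. In RNA pooled from many cells, fewer expressing cells and less RNA per cell cannot be told apart. The order of mean levels was LIF, IL6, OSMR, IL11, CTF1, IL6ST, LIFR, IL6R, IL11RA and CLCF1. Without replicate 1 IL6ST stood above CTF1, at rank 5, and the rest of the order was the same. Of the 8 steps between neighbours down to IL11RA, those from IL11 to CTF1, from CTF1 to IL6ST and from LIFR to IL6R did not exceed the replicate spread. The step from IL6 to OSMR was small, at 0.19 ± 0.07 on the log2 scale (SD, n = 3), with IL6 higher in 3 of 3 libraries. Its direction depended on length scaling. With no length scaling OSMR was higher, at a mean log2 level of 7.06 against 5.46 for IL6. With only the exon length outside the spans of other genes IL6 was higher, at 5.17 against 4.36. A difference is said to exceed the spread where all libraries have the same sign and the mean is above 2 SD. No p-value is given for such ratios, since an exact sign permutation over 3 libraries cannot go below 0.25.

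**Figure D1:**
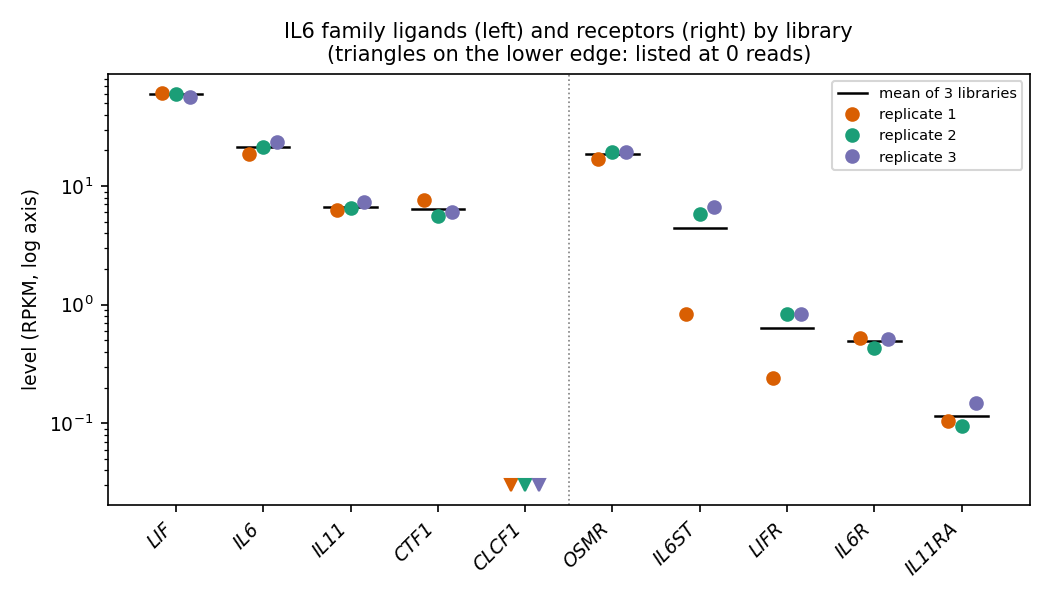
Level of each member in each library (RPKM, log axis), with ligands on the left and receptors on the right. Points are libraries, bars are means of 3 libraries, and triangles mark CLCF1, listed at 0 reads; IL6ST and LIFR are the members whose replicate 1 lies far below the other libraries.

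LIF, a cytokine that acts on epithelial, neural and stem cells through LIFR and gp130, was the most abundant member. It had 6550, 6508 and 7844 reads in replicates 1, 2 and 3, or 60.8, 60.4 and 56.8 RPKM. These levels were nearly equal, with a coefficient of variation of 3.68%, and the mean of 59.3 ± 2.18 RPKM (SD, n = 3) was above the level of 96.5% of protein-coding genes. LIF (chromosome 22, 30240447 to 30246851, minus strand, GENCODE 29 on GRCh38) has 6.73% of its exon length inside the spans of other genes. Those are the antisense genes LIF-AS1, with 24, 20 and 28 reads, and LIF-AS2, with 76, 78 and 92. The strand setting of the counting is not given in the sources used here, so reads of LIF and its antisense partners cannot be told apart where they overlap.

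IL6, the acute phase cytokine, ranked next, with 1057, 1209 and 1694 reads or 18.8, 21.5 and 23.5 RPKM. Its lowest library was replicate 1, and the mean was 21.3 ± 2.37 RPKM (SD, n = 3), above 89.8% of protein-coding genes. The gene (chromosome 7, 22725884 to 22732002, plus strand) shares 41.0% of its exon length with the spans of STEAP1B and IL6-AS1 on the opposite strand. IL6-AS1 was listed at 0 reads in each library, and STEAP1B had 444, 1155 and 1682 reads. Many genes lying wholly inside other spans were listed at 0 in this table, and with only the exon length outside other spans IL6 stood at 36.1 ± 4.02 RPKM. LIF remained above IL6 on that length, by 0.82 on the log2 scale, against 1.48 ± 0.21 with the whole exon length, a 2.79-fold difference.

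IL11, a cytokine of stromal and epithelial cells that acts through IL11RA, had 458, 470 and 684 reads, or 6.31, 6.48 and 7.36 RPKM. CTF1, first described as a growth factor of heart muscle cells, had 347, 255 and 350 reads, or 7.68, 5.64 and 6.05 RPKM. Their means of 6.72 ± 0.56 and 6.46 ± 1.08 RPKM (SD, n = 3) could not be ordered: CTF1 was higher in replicate 1 and IL11 in replicates 2 and 3. IL11 (chromosome 19, 55364389 to 55370463, minus strand) and CTF1 (chromosome 16, 30896607 to 30903560, plus strand) have 0% of their exon length inside other spans. IL6 exceeded IL11 3.13-fold (log2 1.65 ± 0.08, or 2.41 with the exon length outside other spans) and LIF exceeded IL11 8.73-fold (log2 3.13 ± 0.17), with the same direction in 3 of 3 libraries.

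CLCF1, which acts through the CNTF receptor, was listed at 0 reads in each library. The gene (chromosome 11, 67364168 to 67374177, minus strand) has 100% of its exon length inside the span of RAD9A, on the opposite strand, which had 547, 462 and 541 reads. On the same strand, 85.6% lies inside the span of a protein-coding gene listed as AP003419.11 at 0 reads. Of 2113 protein-coding genes wholly inside other spans, 1.94% were detected, where the share was 52.4% among 9483 genes free of overlap. The 0 is therefore given only as listed. It would allow up to 0.11 CPM in replicate 1, from 3 reads and for counting error only. That bound takes each read as an independent molecule, which reads here need not be, so it may be too low. The ratio of CLCF1 to CTF1 was not formed.

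Summed over the ligands other than CLCF1, whose 0 is only as listed, the level was 93.6, 94.0 and 93.8 RPKM in the 3 libraries. LIF made up 63.3% ± 2.33 of it (SD, n = 3), IL6 22.7% ± 2.51, IL11 7.16% ± 0.60 and CTF1 6.89% ± 1.17. These shares rest on whole exon length, and their SDs do not cover that choice. With the exon length outside other spans LIF stood at 63.6 and IL6 at 36.1 RPKM, with IL11 and CTF1 unchanged. The IL6 share would then be larger and the LIF share smaller. Most of the sum over these 4 ligands was LIF and IL6 in every library, and it differed little between replicate 1 and the others.

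OSMR, the oncostatin M receptor chain, was the most abundant receptor. It had 3266, 3790 and 4864 reads, or 16.8, 19.4 and 19.5 RPKM, with a mean of 18.6 ± 1.56 RPKM (SD, n = 3), above 88.3% of protein-coding genes. Replicate 1 was the lowest library, at 86.1% of the mean of the others. OSMR (chromosome 5, 38845858 to 38945596, plus strand) has 9.28% of its exon length inside the span of RICTOR.

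IL6ST, which encodes gp130, had 209, 1455 and 2172 reads, or 0.83, 5.76 and 6.72 RPKM. Replicate 1 was far below the others, at 13.3% of their mean, and lower in this ratio than all but 1.17% of 10523 protein-coding genes whose mean reached 1 CPM. The mean over 3 libraries, 4.44 ± 3.16 RPKM, has a coefficient of variation of 71.3%, and without replicate 1 the mean was 6.24 RPKM. The gene (chromosome 5, 55935095 to 55994993, minus strand) has 63.3% of its exon length inside other spans, chiefly that of an antisense gene listed as CTD-2031P19.5 at 0 reads. With the exon length outside other spans IL6ST stood at 12.1 ± 8.62 RPKM and moved from rank 6 to rank 4 among the members. On that length it was at 2.26, 15.7 and 18.3 RPKM, below IL11 and CTF1 in replicate 1 and above both in replicates 2 and 3.

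LIFR, the LIF receptor chain, had 77, 267 and 341 reads, or 0.24, 0.83 and 0.83 RPKM. Replicates 2 and 3 were nearly equal, and replicate 1 was at 28.9% of their mean. The gene (chromosome 5, 38474963 to 38608354, minus strand) lies 237.5 kb from OSMR, which is on the other strand, so these receptor genes are near neighbours whose levels differed widely. OSMR exceeded LIFR 28.1-fold (log2 4.81 ± 0.71), and in replicates 2 and 3 the log2 ratios were 4.40 and 4.40. With a pseudocount of 1 the mean log2 ratio was 3.60.

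IL6R, the IL6-binding chain, had 92, 76 and 116 reads, or 0.53, 0.43 and 0.52 RPKM, with a mean of 0.49 ± 0.05 RPKM (SD, n = 3). That is close to the median of all protein-coding genes, 0.48 RPKM. IL6R (chromosome 1, 154405193 to 154469450, plus strand) has 8.09% of its exon length inside other spans. LIFR and IL6R could not be ordered, since IL6R was higher in replicate 1 and LIFR in replicates 2 and 3. IL11RA, the IL11-binding chain, had 12, 11 and 22 reads, or 0.10, 0.095 and 0.15 RPKM, and was below IL6R in 3 of 3 libraries (log2 -1.46 ± 0.15). IL11RA (chromosome 9, 34650702 to 34661892, plus strand) has 65.0% of its exon length inside other spans, and with the length outside them it stood at 0.33 RPKM and the ratio at -0.57. The size of this ratio depends on the pseudocount, at -0.42 with 1 and -2.02 with 0.01.

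In the 3 ligand and receptor pairs compared, the ligand was the more abundant. OSM and OSMR, not among these pairs, went the other way, with 0, 0 and 2 reads of OSM and OSMR at 18.6 RPKM. IL6 exceeded IL6R 36.1-fold (log2 5.17 ± 0.22), and IL11 exceeded IL11RA 31.8-fold (log2 4.99 ± 0.08). With the exon length outside other spans these log2 ratios were 5.83 and 4.0. IL11RA lies near the pseudocount of 0.1 RPKM, which sets much of its fold: the log2 ratio of IL11 to IL11RA was 2.79 with a pseudocount of 1 and 5.77 with 0.01. That of IL6 to IL6R was 3.90 with a pseudocount of 1 and 3.75 with no length scaling. LIF exceeded LIFR by 6.48 ± 0.87 on the log2 scale, at 7.49, 6.03 and 5.94 in replicates 1, 2 and 3, and by 5.23 with a pseudocount of 1. All these ratios had the same sign in 3 of 3 libraries and exceeded the replicate spread. RNA levels of a ligand and a receptor do not measure their proteins.

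The ratios of the shared chain to the specific chains differed most in replicate 1. IL6ST was below OSMR in every library, with log2 ratios of -4.18, -1.74 and -1.52 in replicates 1, 2 and 3, but the mean of -2.48 ± 1.48 did not exceed the spread. Without replicate 1 it was -1.63 and did so, but the rule is easier to pass with only replicates 2 and 3. IL6ST was above IL6R by 0.57, 3.46 and 3.47 on the log2 scale, a mean of 2.50 ± 1.67 that also fell within the spread, and by 3.46 without replicate 1. IL6ST exceeded LIFR by 2.33 ± 0.77, past the spread, at 1.45, 2.66 and 2.88, and by a mean of 3.64 with the exon length outside other spans. With a pseudocount of 1 it was 1.51 ± 0.83 and no longer past the spread. In replicates 2 and 3, then, the receptor levels per exon length ran OSMR, IL6ST, LIFR, IL6R and IL11RA.

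**Figure D2:**
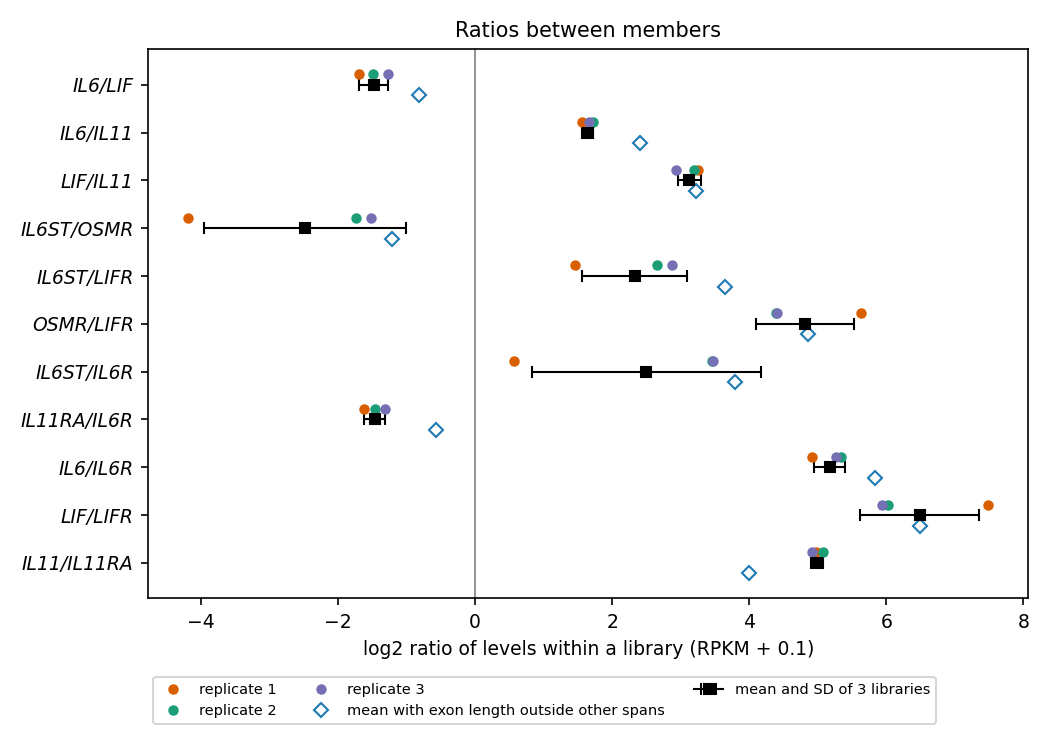
Log2 ratios of levels between members within a library, with each library as a point above its row, the mean and SD as a square with bars, and the mean with exon length outside other spans as an open diamond. Replicate 1 lies apart in the rows that hold IL6ST or LIFR, and the bars of IL6ST/OSMR and IL6ST/IL6R are the widest, at SDs of 1.48 and 1.67.

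Among the 8 members whose mean reached 1 CPM, replicate 1 held under 50% of the mean of the other libraries for IL6ST and LIFR, beside 14.6% of 10523 protein-coding genes. Their longest transcripts have the lowest GC content of the members, 36.6% and 36.2%, where the other 8 members lie between 44.5% and 62.9%. After correction for the trend on GC content, replicate 1 was at 33.4% for IL6ST and 75.2% for LIFR, and 5.93% of protein-coding genes were below 50%. The 6 other members whose mean reached 1 CPM were at 83.5% to 131% before correction, CTF1 being the highest and also the richest in GC. After correction they were at 72.8% (IL11) to 100% (CTF1), a range that holds LIFR but not IL6ST. The labels name no batch, and the part of GC content in the low IL6ST value beyond this correction was not tested.

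**Figure D3:**
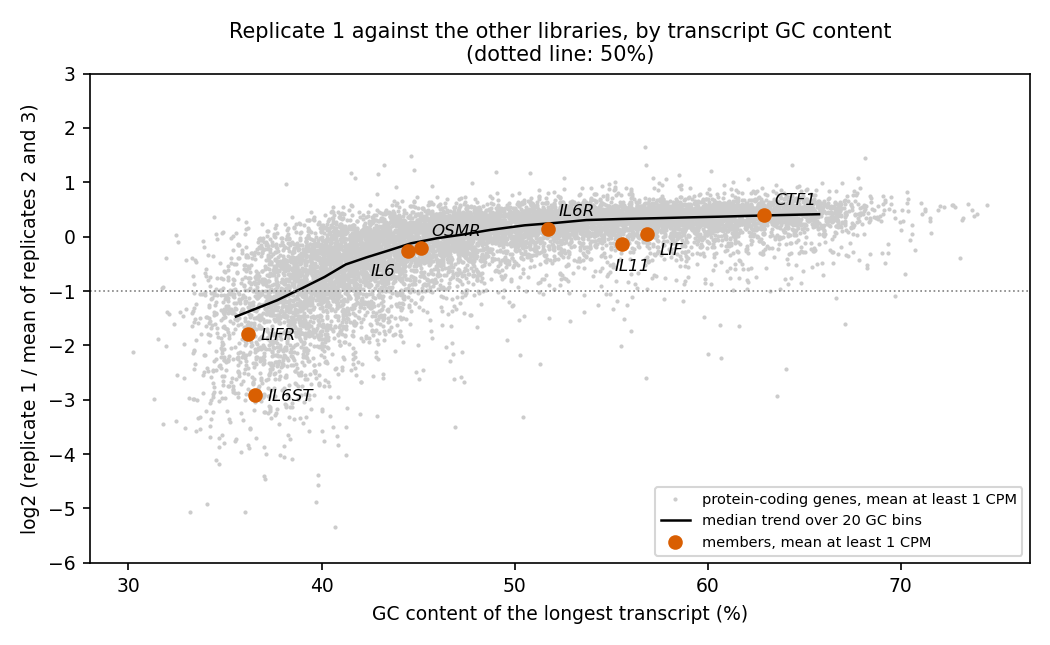
Replicate 1 over the mean of the other libraries (log2) against the GC content of the longest transcript (%), for protein-coding genes whose mean reached 1 CPM (grey), with the median over 20 GC bins as a line. IL6ST and LIFR, at 36.6% and 36.2% GC, lie below the dotted line at 50%, and the other 6 members shown lie above it.

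Other genes of the family were mostly low. Of 9, among them OSM, CNTF, IL27, EBI3, IL31, CNTFR, IL27RA and IL31RA, 3 were detected (51.4% of protein-coding genes were), and 4 without replicate 1, with a list median of 0.18 RPKM. EBI3, the partner subunit of IL27, stood at 33.7 ± 5.05 RPKM (SD, n = 3), between LIF and IL6 by whole exon length but below the 36.1 RPKM of IL6 on the length outside other spans. IL27RA stood at 4.73 ± 0.60 RPKM. OSM, the ligand of the abundant OSMR, had 0, 0 and 2 reads. CNTFR, the CNTF-binding chain, was listed at 0 reads.

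The signalling chain behind gp130 was detected for 10 of 11 genes, beside 51.4% of protein-coding genes, with a median of 17.3 RPKM against 0.48 RPKM over all protein-coding genes. JAK1, the kinase most tied to gp130, stood at 52.7 ± 2.79 RPKM (SD, n = 3). STAT5A was the lowest at 0.081 RPKM. JAK2, PTPN11, GAB1 and SOS1, 4 of the 10 whose mean reached 1 CPM, had under 50% of the others' mean in replicate 1. The share was 14.6% among 10523 protein-coding genes with such a mean. Their transcripts also had low GC content, from 37.8% to 42.2%. In other lists CNTF, PTPN2, ADAM10, REL and RC3H2, at 37.8% to 44.2% GC, were below 50% as well, at 27.5% to 46.9%. So were NFKBIZ and EPCAM, at 46.2% and 47.0% GC, with 41.0% and 46.1%. Whether GC content accounts for the low values of these genes was not tested.

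Of 9 inhibitors of the pathway 8 were detected, beside 51.4% of protein-coding genes, with a median of 3.52 RPKM. SOCS3, the feedback inhibitor that binds gp130, led at 97.6 ± 17.2 RPKM, followed by the phosphatase PTPN1 at 58.6 ± 7.49 RPKM. SOCS1 was listed at 0 reads, with 100% of its exons inside other spans. Both proteases that shed IL6R from the cell surface were detected, ADAM10 at 4.72 ± 2.62 RPKM and ADAM17 at 2.03 ± 0.33 RPKM. ADAM10 had 750, 2589 and 3680 reads and was at 27.5% in replicate 1.

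Of 23 genes that STAT3 is known to drive, 11 were detected, a share near the 51.4% of all protein-coding genes, and 10 were listed at 0 reads. The list median was 0.035 RPKM, or 16.9 RPKM without the 5 genes that have at least 80% of their exons inside other spans. All 11 detected genes were among the other 18, where 52.4% of protein-coding genes free of overlap were detected. BCL2L1, a survival factor, stood at 112 ± 15.4 RPKM (SD, n = 3), and SOCS3 next. Of the 10 at 0, JUNB, TIMP1, SERPINA3, HP and SAA2 are the 5 with at least 80% of their exons inside other spans. The other 5, FGA, FGB, FGG, CRP and HAMP, are genes of the liver acute phase response or of iron control and have no such overlap. SAA1, an acute phase gene also made outside the liver, had 444, 455 and 547 reads or 20.4 ± 0.65 RPKM. That level was near that of IL6 by whole exon length, but IL6 stood at 36.1 RPKM on the length outside other spans. SAA1 and SAA2 are close copies, so the split of their reads is uncertain.

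Genes that control IL6 mRNA were detected for 12 of 12, beside 51.4% of protein-coding genes, with a median of 19.4 RPKM. CEBPB, which binds the C/EBP element of the IL6 promoter, stood at 63.2 ± 11.5 RPKM (SD, n = 3), and RELA, the NF-kappa-B subunit, at 50.5 ± 10.8 RPKM. REL was the lowest at 0.41 ± 0.22 RPKM, with 0.16, 0.51 and 0.57 in replicates 1, 2 and 3. The RNase ZC3H12A (Regnase-1), which degrades IL6 mRNA, stood at 31.6 ± 0.79 RPKM, and the mRNA-destabilizing ZFP36 at 10.6 ± 0.21 RPKM. ARID5A, which protects IL6 mRNA, stood at 12.7 ± 2.32 RPKM. Genes known to shorten and genes known to lengthen the life of IL6 mRNA were present together.

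**Figure D4:**
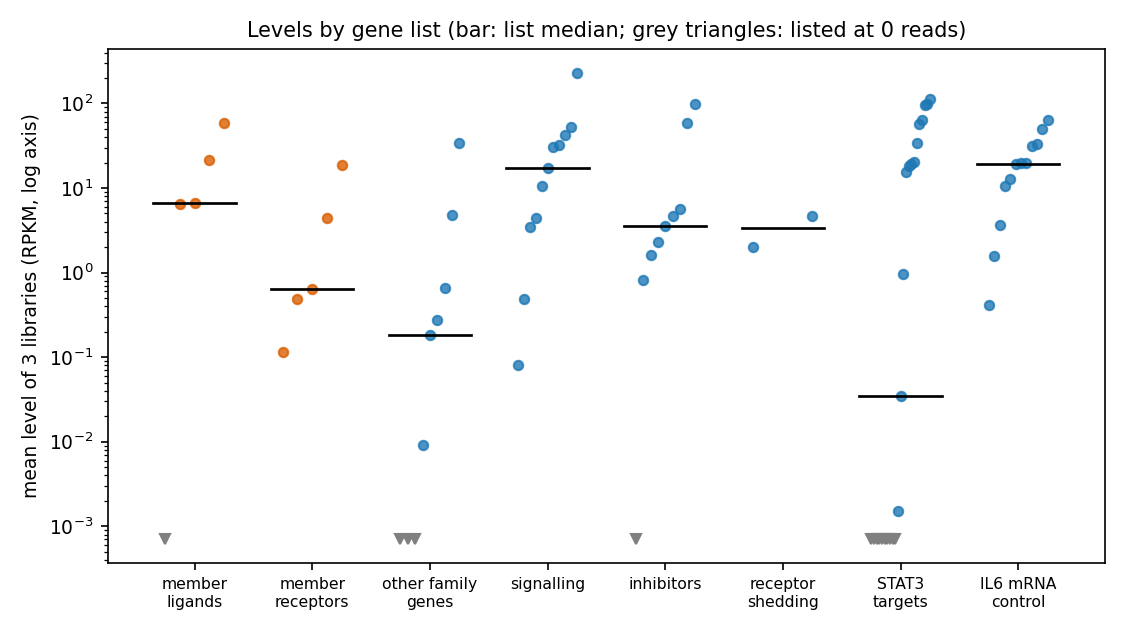
Mean level of each gene (RPKM, log axis, 3 libraries) by gene list, with list medians as bars and genes listed at 0 reads as grey triangles. The medians of the signalling and IL6 mRNA control lists, 17.3 and 19.4 RPKM, lie above that of the member receptors, 0.63 RPKM, and 10 of the 23 STAT3 targets are at 0.

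The protein-coding genes most like LIF in level over the 3 libraries, by Euclidean distance in log2(RPKM + 0.1), were EDN1 at a distance of 0.062, CDC25B at 0.091 and CDH2 at 0.096. EDN1, which encodes endothelin 1, stood at 59.2, 62.5 and 56.8 RPKM in replicates 1, 2 and 3. Those most like IL6 were VPS29 at 0.035, COL7A1 at 0.059 and DSN1 at 0.071. VPS29, a retromer subunit, stood at 18.4, 21.5 and 23.6 RPKM. With 3 libraries of 1 group, this measure compares levels and their small differences between libraries.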

How the data were processed

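The submitters' processing notes name cutadapt 1.18, featureCounts 2.0.0, HISAT2 2.1.0 and FastQC, with the build hg38. Which annotation release and strand setting applied is not given in the sources used here. Values were deposited as a gene signal, counts divided by 1 size factor per library, as read from the values: 100% of nonzero values were whole multiples of 1 step within 0.01 of a read, and whole reads were recovered (factors 0.946, 0.971 and 1.24; totals 29199806, 26264283 and 33458691). The design had assumed counts. Counts of 2 outnumbered counts of 1, so reads need not be independent molecules.

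Of 60605 gene identifiers, 96.3% matched GENCODE 29 (GRCh38), which gave exon lengths, overlaps and the GC content of each gene's longest transcript. Reads were scaled by TMM in edgeR 4.0.16 (R 4.3.3), with a pseudocount of 0.1 RPKM. Alternatives were DESeq2 1.42.0 size factors, total reads, leaving out each library, GC correction over 20 bins, other lengths, pseudocounts and detection minimums. No test between groups was possible with 1 group. Named were all members, the highest genes and some lowest genes of each list, and the 3 nearest genes of the 2 highest members. Other genes of the lists were chosen after their values were seen. Some genes that count in the list totals are not reported here. Members and lists were chosen with earlier results of these data known. The ratio, GC and pair steps were tested on simulated data. Promoters came from RefSeq, and no test was made on them. The labels call the libraries biological replicates, and SDs measure the spread between these libraries of 1 line.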

Additional observations from a re-analysis of the deposited data

How the results depend on the processing

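The count of 8 detected members held under both other scalings, GC correction and leaving out each library (8 to 8). It was 9 at 0.1 CPM and 9 at 10 reads in every library, and 4 at 10 CPM. The count of 2 members below 50% in replicate 1 was 1 after GC correction and 2 under the other alternatives run. Of 121 pair ratios recomputed under alternatives, none changed sign and 114 stayed on the same side of the replicate spread. IL6/OSMR was not among these pairs, and OSMR was above IL6 with no length scaling. IL6ST/OSMR passed the spread at -1.63 without replicate 1 (range on leaving out each library -2.96 to -1.63), at -2.50 with GC correction and at -2.09 with a pseudocount of 1. IL6ST/IL6R passed it at 3.46 without replicate 1 (range 2.01 to 3.46), at 2.48 with GC correction and at 3.80 with exon length outside other spans. IL6ST/LIFR no longer passed it at 1.51 with a pseudocount of 1. Leaving out replicate 1 removes the library farthest from the others and leaves only replicates 2 and 3, with which the rule is easier to pass. For the other settings the cause was not tested. No paired analysis was possible because there is 1 group. The ratio of CLCF1 to CTF1 gave no value under any setting, nor did CLCF1 with exon length outside other spans. IL11RA rests on only 11 to 22 reads a library, while the widest spreads between libraries are those of IL6ST and LIFR (coefficients of variation of 71.3% and 53.8%).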
